A study of Mus musculus with 30 samples.

Results

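Interferon-stimulated genes are the genes that cells switch on when interferon reaches its receptor. A list of 40 such mouse genes was followed through every RNA library of the series, of 25865 gene symbols in the table of naive and activated cells. The list was taken by gene symbol: 39 symbols were found as listed, and Ddx58, which encodes the RNA sensor RIG-I, stands in the tables under its current symbol Rigi. The libraries came from mouse CD4 T cells of spleen and lymph nodes, either from animals labelled as a PKA knockout (KO) or from control animals labelled WT. PKA is protein kinase A, the kinase that cyclic AMP activates. RNA was sequenced in activated cells (3 days with antibodies to CD3 and CD28), in naive cells, and in cells rested for 3 days in IL-7 and then given forskolin, a drug that raises cyclic AMP, at 1 ug/mL for 4 hours. Open chromatin was measured by ATAC-seq in activated and naive cells. Each combination of genotype, state and assay had 3 libraries. Naive cells were enriched and sorted by flow cytometry. The labels name no PKA gene, no strain, age or Cre driver, and nothing in them states that replicates are different mice, so each p-value reflects the spread among samples that may be technical repeats. There was no library of cells rested in IL-7 without forskolin, so the forskolin libraries compare genotypes in treated cells and not the effect of the drug.

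Type I interferon binds a receptor of the chains Ifnar1 and Ifnar2. The kinases Jak1 and Tyk2 then phosphorylate transcription factors, among them STAT2, which join IRF9 and bind a DNA element, the interferon-stimulated response element, in front of the responding genes. Their products detect foreign nucleic acid, block virus entry and replication, or feed back on the signal. Type II interferon, encoded by Ifng and made by T cells, acts through another receptor and mostly on a different element, the gamma-activated sequence. T cells carry a basal level of many of these genes without infection.

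Promoter windows of 300 bases (250 before a start site of the gene and 50 from it on) were read for 31 of the 40 genes. They came from RefSeq on GRCm38.p6. The response element, searched on both strands as GAAA, any 2 bases and GAAA again with overlapping matches counted, was found in 15 of the 31, or 48.4%, and in 3.99% of the 27025 genes with such a window. The gamma-activated sequence, searched the same way as TTCNNNGAA, was found in 7 of 31, or 22.6%, against 9.55% of all genes. The cyclic AMP response element, searched as TGACGTCA, was found in 0 of 31, against 2.03% of all genes. The 7 stretches shown are examples from genes whose RNA is described further on, and their matches lie before the start site of the window. In Ifit3, Slfn5 and Ifitm2 that start site lies inside the gene's annotated span, and so do the matches. Capitals mark the matches, which read as TTTC, 2 bases and TTTC where they lie on the other strand. Positions count from 0 at the start site of the window.
Isg15, chr4:156200855-156200916, minus strand, positions -98 to -37: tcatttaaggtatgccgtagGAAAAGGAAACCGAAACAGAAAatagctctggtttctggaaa
Ifit1, chr19:34640765-34640833, plus strand, positions -124 to -56: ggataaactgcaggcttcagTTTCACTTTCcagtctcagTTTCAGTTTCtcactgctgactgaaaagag
Ifit3, chr19:34583353-34583436, plus strand, positions -176 to -93: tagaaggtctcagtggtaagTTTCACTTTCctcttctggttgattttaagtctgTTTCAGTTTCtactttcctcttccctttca
Rsad2, chr12:26456543-26456592, minus strand, positions -140 to -91: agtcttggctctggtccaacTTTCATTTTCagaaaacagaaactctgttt
Bst2, chr8:71537567-71537622, minus strand, positions -150 to -95: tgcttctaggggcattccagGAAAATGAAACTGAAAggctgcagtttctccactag
Slfn5, chr11:82951927-82951976, plus strand, positions -175 to -126: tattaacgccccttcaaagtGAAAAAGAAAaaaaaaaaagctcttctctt
Ifitm2, chr7:140955978-140956027, minus strand, positions -66 to -17: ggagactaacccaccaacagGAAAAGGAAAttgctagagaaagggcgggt
In Isg15 the 3 matches overlap in 1 run, and in Bst2 the 2 matches overlap likewise. Ifit1 and Ifit3 each hold 2 separate matches on the other strand. The windows of Irf7, Irf9 and Slfn1 held no match, which says only that these letters are not in those windows.

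RNA libraries held 7665955 to 11950488 counts and ATAC libraries 18522373 to 25318916 counts in sites. Levels are given as CPM, counts per 1000000 counts of the library (for ATAC, of its counts in sites), which are not corrected for gene length and are compared only within a gene. Prkaca, the gene of the catalytic subunit alpha of PKA, ranged from 0.920 to 3.90 CPM over the KO libraries and from 29.3 to 55.5 CPM over the WT libraries. Markers of CD4 T cells (6 genes, among them Cd3e, Cd4 and Trac) summed to between 1878 and 3542 CPM. Of the other cell types, 6 B cell markers summed to between 1.52 and 8.56 CPM and 7 myeloid markers to between 0.179 and 11.6 CPM. The 5 NK cell markers (among them Prf1 and Eomes, which T cells can express) summed to between 19.0 and 196 CPM. The 2 CD8 T cell markers summed to between 5.39 and 27.9 CPM. Dendritic cell markers (6, without Bst2) summed to between 0 and 0.728 CPM in naive libraries and between 5.99 and 9.28 CPM in activated ones. With forskolin they summed to between 1.49 and 3.00 CPM. The activated sums rest on few of these genes. Of the 7 listed with Bst2, 2 passed the filter on low counts in the naive and activated libraries, Bst2 among them. Siglech, which marks plasmacytoid dendritic cells, was at 0 in every naive and activated library. It had counts in both forskolin groups. In bulk RNA, fewer cells of a type and less RNA per cell cannot be told apart.

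One feature of the activated libraries comes before the comparisons, because it touches those that use them. In activated KO cells and in activated WT cells alike, the library numbered replicate 1 held the highest level of most of these genes. This was so for 37 of the 39 genes that passed the filter on low counts, the same 37 in both genotypes, the others being Ifitm2 and Slfn2. Replicate 1 was the highest library for 39.0% of all tested genes in activated KO and for 34.2% in activated WT. The level in replicate 1 was 1.54 times the mean of replicates 2 and 3 in KO and 1.89 times in WT (medians over the 39 genes), against 1.01 and 0.980 over all tested genes. In naive cells the same ratio was 1.05 in KO and 1.01 in WT.

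Rsad2, which encodes the antiviral enzyme viperin, had the highest ratio in WT. It stood at 11.5, 3.09 and 6.03 CPM in activated KO replicates 1, 2 and 3, and at 37.5, 6.45 and 4.18 CPM in activated WT. Isg15, a ubiquitin-like protein that is joined to other proteins during an interferon response, stood at 149, 64.1 and 70.1 CPM in KO and at 286, 110 and 77.7 CPM in WT. Mx1, a GTPase that blocks virus replication, stood at 79.2, 29.8 and 31.6 CPM in KO and at 126, 49.3 and 33.2 CPM in WT. In all 3 genes both replicate 1 libraries lie above their own group's other libraries, and the KO and WT libraries overlap.

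**Figure D1:**
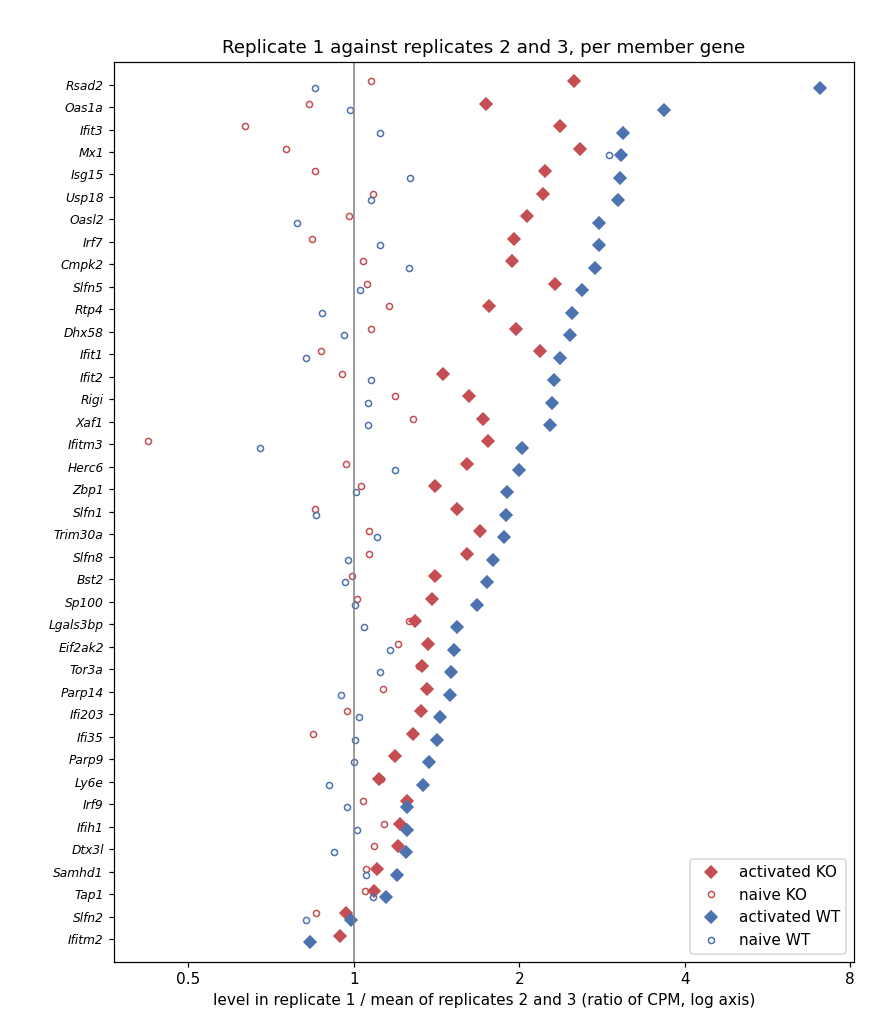
Ratio of the level in replicate 1 to the mean of replicates 2 and 3 (CPM, log axis) for each of the 39 tested genes, in activated KO and WT cells (filled diamonds) and naive KO and WT cells (open circles), ordered by the ratio in activated WT. In activated cells 37 of 39 genes lie right of 1 in both genotypes, and Rsad2 lies at 2.51 in KO and 7.05 in WT.

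The pathway around the list moved with replicate 1 in part. Of 55 tested genes on a second list of interferon-stimulated genes, replicate 1 was highest for 46 in activated KO and 48 in activated WT, with median ratios of 1.29 and 1.37. Stat2 had ratios of 1.57 in KO and 1.57 in WT, and Ifng 1.39 and 1.88. Irf1, a transcription factor gene induced by interferon gamma, had ratios of 0.925 in KO and 0.866 in WT. Gbp2, a GTPase gene also induced by interferon gamma, was lower in replicate 1, at 0.793 in KO and 0.731 in WT. Genes with a response element in the promoter window had median ratios of 1.70 in KO and 2.02 in WT (15 genes), and those without one 1.39 and 1.68 (15 genes), with ranges that overlap. No label gives a day or batch for replicate 1, and what set these libraries apart was not tested.

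With all libraries included, 2 of the 39 tested genes differed between activated KO and activated WT cells (edgeR quasi-likelihood test, adjusted p under 0.05), against 14.9% of all 11980 genes tested (5.89% higher and 9.04% lower in KO). That split over all genes, 706 higher and 1083 lower, was 987 and 843 with upper-quartile scaling, which left the 2 calls on the list as 1 higher and 1 lower. Ifitm3, a membrane protein that keeps viruses from fusing with endosomes, was lower in KO, and Ly6e, a GPI-anchored surface protein that also limits virus entry, was higher. Most of the others leaned towards lower levels in KO without passing the test: 30 of the 39 had a negative log2 fold change, with a median of -0.36 against 0.01 over all genes. The antiviral effectors had a median of -0.59 with 0 of 11 called, and the Schlafen family, which regulates T cell growth and restricts viruses, a median of -0.54 with 0 of 4 called. The sensors had a median of -0.41 with 0 of 5 called and the regulators -0.38 with 0 of 10. The nuclear and other genes, at 0.07 with 0 of 4 called, and the membrane and secreted genes, at 0.00 with 2 of 5 called, did not share the lean.

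Ifitm3 stood at 10.9, 5.21 and 7.19 CPM in activated KO replicates 1, 2 and 3 and at 44.8, 23.3 and 20.9 CPM in activated WT, so every KO library lay below every WT library. Its log2 fold change was -1.95 ± 0.31 (SE, adjusted p = 0.00100, edgeR quasi-likelihood test). Without both replicate 1 libraries it was -1.85 (adjusted p = 9.96e-06). Ly6e stood at 311, 268 and 292 CPM in activated KO and at 243, 192 and 172 CPM in activated WT, again with no overlap. Its log2 fold change was 0.50 ± 0.11 (adjusted p = 0.00545), and 0.61 without both replicate 1 libraries. Fitted alone and without a block, the 6 activated libraries gave 0 genes higher and 2 lower, Ifitm3 and Slfn2, against 21.4% of genes (9.31% higher, 12.1% lower), and the call of Ly6e was lost (adjusted p = 0.0688). Slfn2 was the one other gene whose groups did not overlap, at 430, 447 and 441 CPM in KO and 486, 504 and 481 CPM in WT (-0.18 ± 0.10, adjusted p = 0.28). That makes 1 gene higher and 2 lower in every KO library, against 22.1% and 17.1% of all genes.

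The replicate numbers matter to this comparison, because activated libraries of the same number deviated from their group means together. With the replicate number as a block in the fit of 12 libraries, 5 of the 39 genes were called, 1 higher and 4 lower in KO, against 17.3% of all genes (7.25% higher, 10.1% lower). The lower ones were Ifitm3, Slfn5 (-1.47 ± 0.39, adjusted p = 0.0494), the RNA-activated kinase gene Eif2ak2 and Parp9, the gene of an ADP-ribosyltransferase. A block in the 6 activated libraries alone, chosen after seeing the data, called 20 genes, 3 higher and 17 lower in KO, against 34.1% of 11474 genes tested (15.5% higher, 18.6% lower). Leaving out both replicate 1 libraries, also chosen after seeing the data, called 10 genes, 2 higher and 8 lower. That compares with 8.99% of 12064 genes tested (3.15% higher, 5.84% lower). The median log2 fold change of the list was then -0.22, against -0.36 with all libraries. More genes were thus called while the median difference was smaller.

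**Figure D2:**
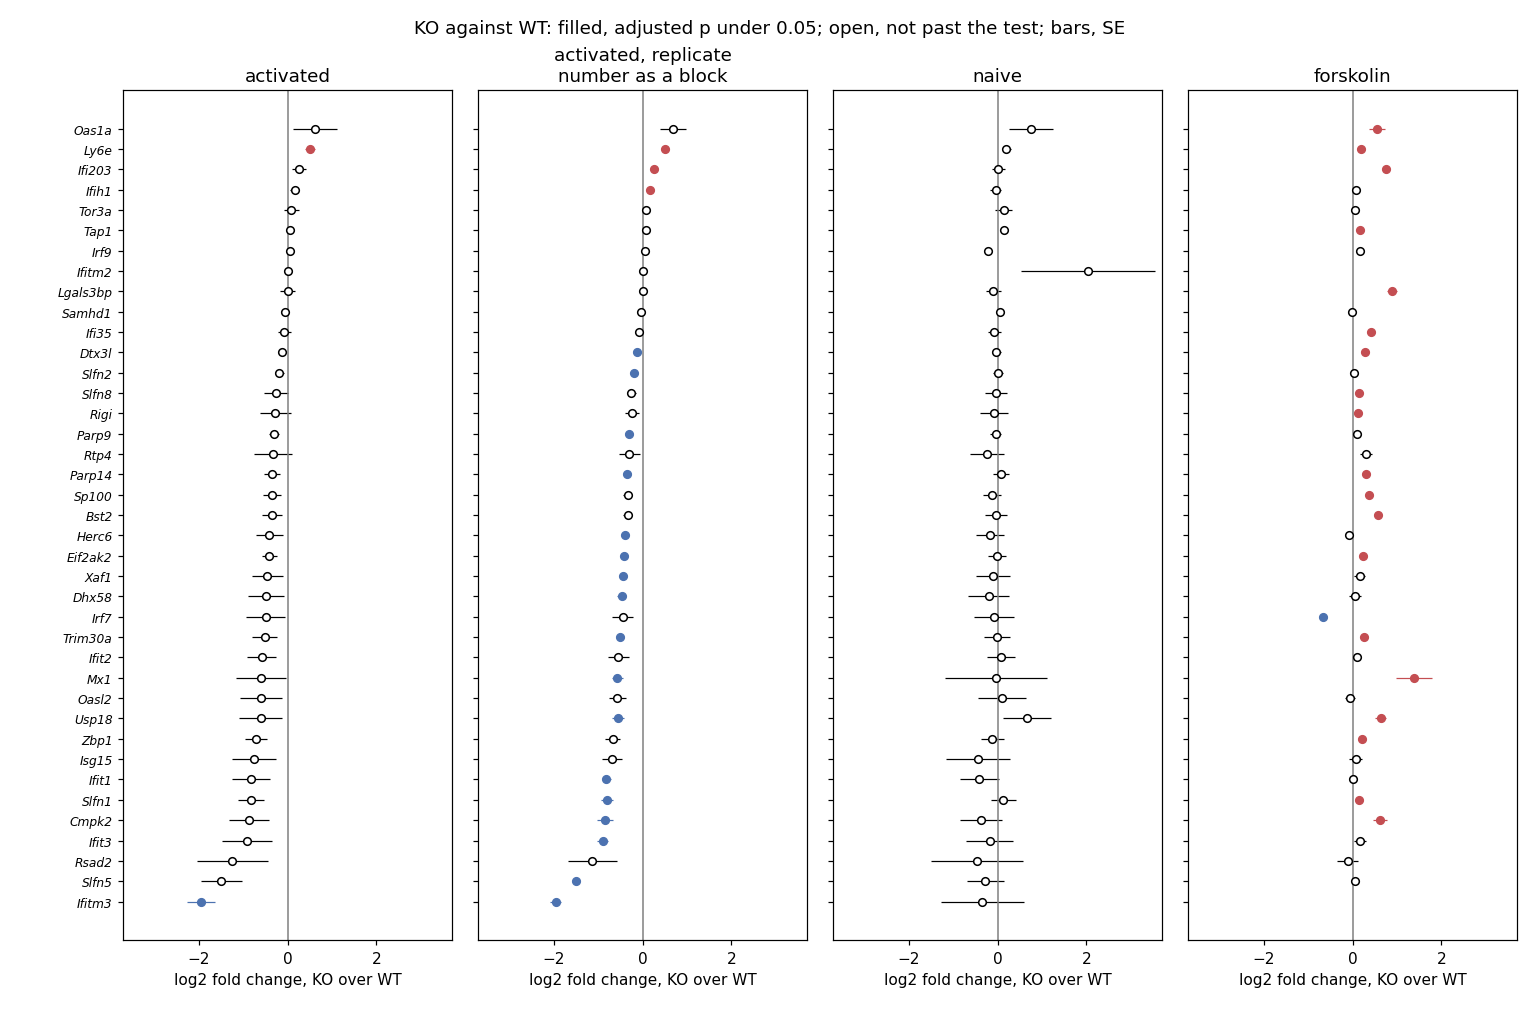
Log2 fold change of KO over WT (bars, SE) for each tested gene in activated cells, in activated cells with the replicate number as a block (6 activated libraries), in naive cells and in forskolin-treated cells. Filled points have an adjusted p under 0.05: 2 genes in activated cells, 20 with the block, 0 in naive cells and 20 with forskolin.

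The genes behind those counts are given by same-numbered pair, a match that is weak between numbers 2 and 3. In activated cells, deviations of KO 2 correlated at 0.280 with WT 2 and at 0.254 with WT 3. Slfn5 stood at 40.5, 17.4 and 17.5 CPM in activated KO replicates 1, 2 and 3 and at 119, 52.6 and 38.9 CPM in activated WT. KO was below WT in each same-numbered pair, with log2 differences of -1.55, -1.60 and -1.15, although KO replicate 1 exceeded WT replicate 3. Ifit1, which binds viral RNA caps, stood at 51.2, 21.9 and 25.1 CPM in KO and at 92.5, 44.2 and 33.7 CPM in WT, with log2 differences of -0.85, -1.01 and -0.43. Ifit3, its neighbour in the same family, stood at 15.6, 6.85 and 6.32 CPM in KO and at 32.7, 13.1 and 8.09 CPM in WT, with overlap.

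Over the list, 22 of 39 genes were lower in KO in all 3 same-numbered pairs and 7 were higher in all 3, against 25.6% and 34.4% of all genes. By number the third pair differed least, though numbers 2 and 3 are weakly told apart. The median log2 difference over the 39 genes was -0.51 in pair 1, -0.40 in pair 2 and -0.07 in pair 3. Isg15 differed by -0.93, -0.78 and -0.15, and Mx1 by -0.67, -0.72 and -0.07. Rsad2 was lower in KO in pairs 1 and 2, at -1.71 and -1.06, and higher in pair 3, at 0.53. Irf7, the transcription factor that amplifies type I interferon, had the same pattern, at -0.71, -0.53 and 0.15. Its levels were 85.9, 39.9 and 47.9 CPM in KO and 140, 57.4 and 43.1 CPM in WT, with overlap. The higher KO level of Rsad2 and Irf7 in pair 3 rests on the numbering. With KO 2 set against WT 3 and KO 3 against WT 2, both genes are lower in KO in every pair.

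Marker levels also differed between the activated groups. Summed CD4 T cell markers (6 of 6 measured) ranged from 1878 to 1895 CPM in KO and from 2248 to 2375 CPM in WT. Summed B cell markers (6 of 6 measured) ranged from 5.31 to 8.56 CPM in KO, with Pax5 at 0, and from 1.52 to 2.94 CPM in WT. Dendritic cell markers (6, without Bst2, which is on the list itself) ranged from 5.99 to 6.51 CPM in KO and from 6.64 to 9.28 CPM in WT. Siglech, Clec9a and Itgax were at 0 in both, and Flt3 was at 0 in KO. NK cell markers (5 of 5 measured) ranged from 121 to 163 CPM in KO and from 158 to 196 CPM in WT, which overlap, and 1 of the 3 that were tested was lower in KO. Their part in the differences between KO and WT was not tested.

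**Figure D3:**
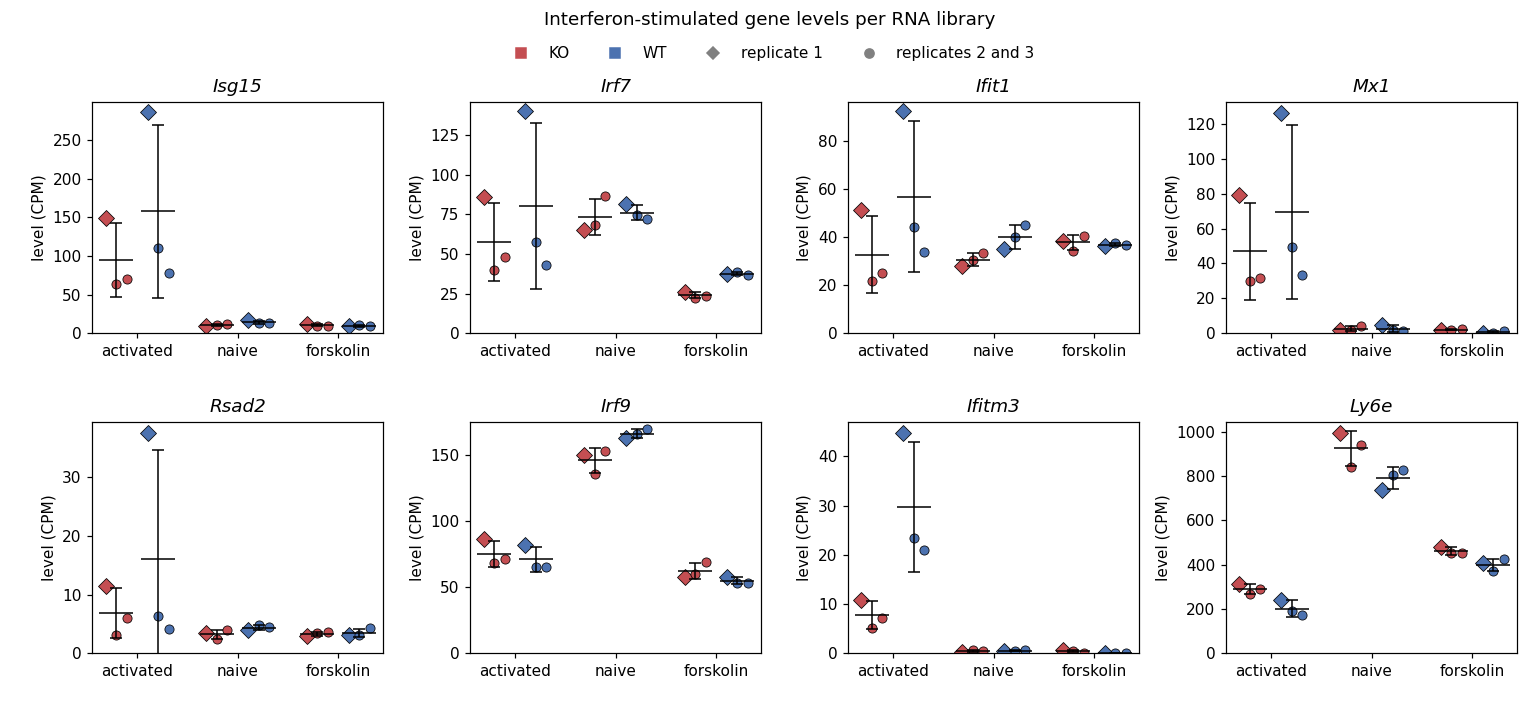
Level in CPM of 8 of the genes in each RNA library, with KO left of WT in activated, naive and forskolin-treated cells; diamonds are replicate 1, circles replicates 2 and 3, and lines the mean with SD (n = 3). Isg15 in replicate 1 reached 149 CPM in activated KO and 286 CPM in activated WT, above the other libraries of each group.

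Naive KO and naive WT cells did not differ past the test in any of the 39 genes (edgeR quasi-likelihood test, and 0 with DESeq2), against 0.242% of all genes (0.125% higher, 0.117% lower). These fits estimate the spread of each gene from naive and activated libraries together. The wide spread of the activated libraries thus enters the naive SE, and a naive difference can be missed. The naive libraries were not fitted alone. At an unadjusted p under 0.05 there was 1, Irf9, the DNA-binding partner of STAT2. Irf9 stood at 150, 135 and 153 CPM in naive KO and at 163, 166 and 170 CPM in naive WT, with no overlap, a log2 fold change of -0.21 ± 0.09 and an adjusted p of 0.962. The median log2 fold change of the list was -0.04, against -0.01 over all genes. Isg15 stood at 9.73, 11.03 and 11.9 CPM in naive KO and at 17.0, 13.5 and 13.4 CPM in naive WT, which does not overlap either (log2 fold change -0.44 ± 0.72, adjusted p = 1). In all, 4 genes (Ly6e, Oas1a, Tap1 and Usp18) were higher in every KO library than in every WT library and 7 were lower, against 4.97% and 2.87% of all genes. Usp18 stood at 33.8 to 39.7 CPM in naive KO and at 21.7 to 24.7 CPM in naive WT.

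Activation changed the list in both directions. In KO cells 12 of 39 genes rose and 12 fell, against 82.1% of all genes called (42.3% higher, 39.8% lower). In WT cells 16 rose and 11 fell, against 82.6% of all genes (42.3% higher, 40.3% lower). Of the genes that rose, 11 were called in both genotypes, which is 91.7% of those in KO and 68.8% of those in WT. All 11 genes that fell in WT also fell in KO, 91.7% of the KO list. The difference between the genotypes in this step, the interaction, passed for 0 of 39 genes (edgeR quasi-likelihood test, 1 at an unadjusted p under 0.05, 0 with DESeq2), against 3.7% of all genes (1.18% higher, 2.52% lower). It was negative for 34 of the 39, with a median of -0.32. Without both replicate 1 activated libraries it passed for 3 genes, against 2.89% of all genes (0.754% higher, 2.14% lower). They were Slfn5 at -1.13 ± 0.15, Usp18 at -0.99 ± 0.14 and Slfn1 at -0.80 ± 0.18, where a negative value is a lower fold change on activation in KO than in WT. For Usp18 the value also holds its higher naive level in KO. Between activated KO and WT in that setting, Usp18 was at -0.34 ± 0.11 (adjusted p = 0.0621, edgeR quasi-likelihood test).

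The largest rises were in the IFITM family. Ifitm2, a relative of Ifitm3, stood at 124, 136 and 126 CPM in activated KO and at 111, 131 and 136 CPM in activated WT. Naive KO libraries held 1 count of it in all and naive WT libraries none. In KO the ratio of activated to naive cells was 3526, with a 95% counting interval of 632 to 139284. Taking 3 counts summed over the naive WT libraries as the floor, activated WT cells were at least 1214-fold higher. Reads of Ifitm2 and Ifitm3 can be hard to assign, as the genes are close in sequence, and Ifitm1 held at most 3 counts in any naive or activated library and was not tested.

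Ifitm3 rose to 5.21 to 10.9 CPM in activated KO cells, against 0.226 to 0.624 CPM in naive KO cells (log2 fold change 3.99 ± 0.57, adjusted p = 2.92e-05). In WT cells it rose to 20.9 to 44.8 CPM, against 0.425 to 0.725 CPM in naive WT cells (5.60 ± 0.47, adjusted p = 1.94e-07). Mx1 rose by 3.96 ± 0.81 in KO and 4.52 ± 0.79 in WT, and Isg15 by 2.99 ± 0.62 and 3.31 ± 0.59 on the log2 scale (adjusted p at most 0.00183). The sensors split: Ifih1, which encodes the long RNA sensor MDA5, rose by 3.04 ± 0.11 in KO and 2.84 ± 0.11 in WT, while Rigi fell by 1.83 ± 0.34 in KO and 1.63 ± 0.34 in WT. Eif2ak2 rose by 1.85 ± 0.19 in KO and 2.25 ± 0.19 in WT.

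Of the genes that fell, Ly6e, Slfn5, Slfn8 and Rigi had the largest changes in WT. Ly6e fell to 268 to 311 CPM in activated KO cells, against 839 to 996 CPM in naive KO cells, and to 172 to 243 CPM in activated WT cells, against 736 to 828 CPM in naive WT cells. Neither pair of ranges overlaps. Slfn8 stood at 64.1, 35.5 and 44.3 CPM in activated KO and at 172, 157 and 165 CPM in naive KO, with 79.8, 48.9 and 40.2 CPM in activated WT and 163, 186 and 149 CPM in naive WT. Rigi stood at 59.2, 35.5 and 37.6 CPM in activated KO and at 161, 130 and 141 CPM in naive KO, with 84.0, 41.3 and 32.1 CPM in activated WT and 156, 164 and 129 CPM in naive WT. Every activated library of both genes lies below every naive one of its genotype. Slfn5 fell by 3.08 ± 0.46 in KO and 1.86 ± 0.43 in WT, Slfn8 by 1.90 ± 0.27 and 1.68 ± 0.26, and Slfn1 by 2.25 ± 0.30 and 1.30 ± 0.29 on the log2 scale. Slfn2, whose loss is known to disturb T cell quiescence in mice, fell by 0.26 ± 0.10 in KO (adjusted p = 0.0336), and in WT had a log2 fold change of -0.06 ± 0.10. Irf9 fell by 1.08 ± 0.10 in KO and 1.35 ± 0.10 in WT. Irf7 did not pass in either genotype (log2 fold change -0.47 ± 0.45 in KO and -0.04 ± 0.45 in WT), nor did Ifit1 (-0.03 ± 0.45 and 0.38 ± 0.42).

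**Figure D4:**
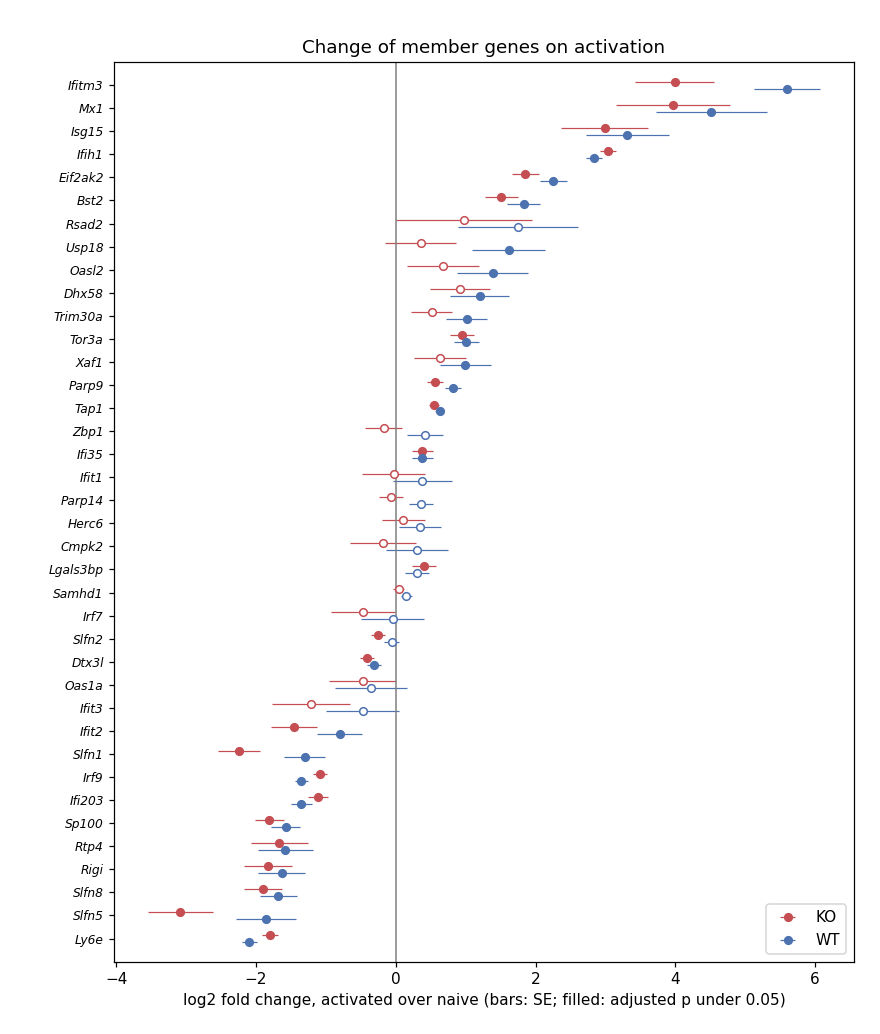
Log2 fold change of activated over naive cells (bars, SE) for 38 tested genes in KO (red, upper) and WT (blue, lower), ordered by the change in WT; filled points have an adjusted p under 0.05. Ifitm2 is left out because a naive group held 0 counts. Ifitm3 is at 3.99 in KO and 5.60 in WT, and Ly6e at the bottom at -1.80 and -2.09.

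With forskolin the genotypes differed in the opposite direction to the lean seen in activated cells. Of 37 tested genes 19 were higher in KO and 1 lower, against 38.5% of all 11658 genes tested (19.7% higher, 18.8% lower). The 3 genes not tested were Ifitm1, Ifitm2 and Ifitm3, at under 1 CPM in every forskolin library. The median log2 fold change was 0.16, against 0.00 over all genes. In 22 of 37 genes every KO library lay above every WT library, and in 1 every KO library lay below, against 26.8% and 21.3% of all genes. The 40 genes together held 0.468% to 0.469% of counts in the KO libraries and 0.402% to 0.416% in the WT libraries. The forskolin libraries stand in a table of their own, so levels are not compared across tables.

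The largest difference was at Mx1, at 2.20, 1.70 and 2.72 CPM in KO and 0.522, 0.496 and 1.40 CPM in WT, a low level in both (log2 fold change 1.38 ± 0.40, adjusted p = 0.00612). Lgals3bp, a secreted glycoprotein that binds galectins, stood at 23.5, 20.7 and 23.6 CPM in KO and at 12.5, 10.8 and 12.8 CPM in WT. Every KO library lay above every WT library (0.89 ± 0.11, adjusted p = 1.67e-07). Ifi203, of the nuclear PYHIN family that binds DNA, stood at 290, 306 and 292 CPM in KO and at 160, 177 and 181 CPM in WT (0.75 ± 0.04, adjusted p = 1.09e-13).

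Usp18, the protease that removes ISG15 and dampens signalling at the interferon receptor, stood at 24.1, 25.3 and 24.5 CPM in forskolin-treated KO and between 13.4 and 19.2 CPM in WT (0.63 ± 0.11, adjusted p = 5.67e-05). Cmpk2, a mitochondrial nucleotide kinase gene, stood at 10.6, 12.8 and 9.88 CPM in KO and at 6.65, 6.82 and 7.84 CPM in WT (0.61 ± 0.16, adjusted p = 0.00246). Bst2, which encodes the virus-tethering protein tetherin, stood at 49.7, 49.8 and 47.2 CPM in KO and at 29.6, 35.9 and 31.5 CPM in WT (0.57 ± 0.07, adjusted p = 2.94e-07). In none of these 3 genes do the groups overlap. The single lower gene was Irf7, at 26.4, 22.5 and 23.6 CPM in KO and 37.2, 38.8 and 37.0 CPM in WT (-0.66 ± 0.08, adjusted p = 6.62e-08), with no overlap. Isg15, Ifit1, Rsad2 and Irf9 did not pass, with log2 fold changes of 0.07 ± 0.14, 0.02 ± 0.07, -0.11 ± 0.24 and 0.16 ± 0.07. By role, 5 of 10 regulators were higher in KO and 1, Irf7, lower, against 19.7% and 18.8% of all genes. In the other roles the calls were all higher: 3 of 3 membrane and secreted genes, 3 of 4 nuclear and other genes, 3 of 5 sensors, 3 of 11 antiviral effectors and 2 of 4 Schlafen genes. The share of antiviral effectors, 27.3%, is near that of all genes, and the other groups are small.

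Genes around the list give the setting. Of 21 genes of interferon receptors and signal transduction, 5 were higher and 7 lower in activated KO cells, against 14.9% of all genes called. In naive cells 0 differed, against 0.242% of all genes. With forskolin 7 were higher and 5 lower, against 38.5% of all genes. Ifnar1 stood at 69.1, 64.1 and 62.1 CPM in activated KO and at 156, 142 and 133 CPM in activated WT (log2 fold change -1.17 ± 0.08, adjusted p = 1.18e-08). With forskolin it stood at 197, 193 and 198 CPM in KO and at 308, 298 and 303 CPM in WT (-0.65 ± 0.03, adjusted p = 2.69e-16). In neither comparison do the groups overlap. Ifngr1, a chain of the interferon gamma receptor, was at -0.77 ± 0.17 in activated cells and -3.65 ± 0.04 with forskolin on the log2 scale (adjusted p = 0.00779 and 6.98e-32), and Socs3, a feedback inhibitor of JAK kinases, at -1.93 ± 0.39 in activated cells (adjusted p = 0.0106).

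Irf1 stood at 306, 319 and 342 CPM in activated KO and at 223, 264 and 250 CPM in activated WT. With forskolin it stood at 179, 166 and 170 CPM in KO and at 121, 129 and 124 CPM in WT. In neither state do the groups overlap. Irf1 was higher in KO in both states, at log2 fold changes of 0.37 ± 0.08 in activated cells and 0.44 ± 0.04 with forskolin (adjusted p at most 0.00364). Stat2 did not pass in either (-0.29 ± 0.23 and -0.07 ± 0.05), and Ifnar2 passed with forskolin alone (-0.20 ± 0.06, adjusted p = 0.00540, against -0.22 ± 0.09, adjusted p = 0.122, in activated cells). With the replicate block in the 6 activated libraries alone, both were lower in activated KO, Stat2 at -0.29 ± 0.07 (adjusted p = 0.0118) and Ifnar2 at -0.22 ± 0.06 (adjusted p = 0.0133). That setting called 34.1% of all genes. In the same 6 libraries without a block neither passed (adjusted p = 0.587 for Stat2 and 0.115 for Ifnar2, edgeR quasi-likelihood test). Nor did they without both replicate 1 libraries (0.133 and 0.272).

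Of 11 interferon genes 1 was tested, Ifng, which was lower in activated KO, at 10.6, 7.14 and 8.17 CPM, than in activated WT, at 31.0, 15.3 and 17.7 CPM (log2 fold change -1.32 ± 0.29, adjusted p = 0.0158). The second list of interferon-stimulated genes had 5 higher and 1 lower of 55 in activated cells, against 14.9% of all genes called. It had 0 in naive cells, against 0.242%. Of 56 tested with forskolin, 37 were higher and 3 lower, against 38.5% (19.7% higher, 18.8% lower). The higher ones included Ifi44 at 2.06 ± 0.35 and the ISG15-conjugating enzyme gene Ube2l6 at 1.72 ± 0.31 on the log2 scale. Of 16 adaptors and kinases of nucleic acid sensing, 1 was higher and 1 lower in activated KO cells, against 14.9% of all genes. Of the same 16, 7 were higher and 2 lower with forskolin, against 38.5%. With forskolin, summed CD4 T cell markers ranged from 1924 to 2022 CPM in KO and from 2514 to 2565 CPM in WT, and 7 myeloid markers from 1.38 to 2.97 CPM in KO and 0.783 to 1.74 CPM in WT. Summed B cell markers ranged from 3.99 to 4.78 CPM in KO and from 2.48 to 3.11 CPM in WT. Regulatory T cell markers (2 of 2 measured) ranged from 43.9 to 48.4 CPM in KO and from 19.1 to 23.1 CPM in WT. NK cell markers ranged from 19.0 to 26.7 CPM in KO and from 32.9 to 40.9 CPM in WT, and CD8 T cell markers from 22.2 to 26.5 CPM in KO and from 16.2 to 19.2 CPM in WT. Their part in the forskolin differences was not tested.

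Chromatin at the same genes was read at 209 ATAC sites that lie in a gene's span or within 10 kb of it. They cover 39 genes, and Slfn2 had none. By the authors' deposited FDR, 0 of the 209 sites gained signal in activated KO cells relative to WT and 8 lost it, against 5.16% of all 110808 sites (0.519% higher, 4.64% lower). In naive cells the deposited FDR called 0 sites, against 0.0171% of all sites (0.0108% higher, 0.00632% lower), with 1 member site at an unadjusted deposited p under 0.05. An edgeR test of the deposited counts called 72 of 203 sites in activated cells, 49 higher and 23 lower, against 35% of all sites (15% higher, 20% lower). In naive cells it called 7 of 167, 5 higher and 2 lower, against 1.89% of all sites (0.703% higher, 1.19% lower). The direction of the activated count thus differs between the tests, and so does their scaling: the median log2 fold change over all sites was -0.11 in the authors' deposited table and 0.02 with edgeR.

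The 3 sites with the smallest deposited FDR in activated cells, given on mm10, all lay outside promoter windows. The first, at chr1:156667470-156667870 inside the span of Tor3a, a gene of the torsin ATPase family, held 2.98, 2.67 and 2.93 CPM in activated KO and 18.1, 13.1 and 10.98 in activated WT (deposited FDR 2.47e-05 in the authors' deposited table). The second, at chr12:26441796-26442196, lies 547 bases outside the span of Rsad2. It held 1.74, 0.873 and 1.02 in KO and 7.43, 3.75 and 3.92 in WT (FDR 0.000320 in the authors' deposited table). The third, at chr7:140973421-140973821, lies 3594 bases outside the span of Ifitm1 and held 3.21, 3.83 and 3.63 in KO and 11.3, 10.1 and 9.96 in WT (FDR 0.00121 in the authors' deposited table). At all 3 every KO library lay below every WT library, and naive libraries held at most 0.514 CPM. Tor3a RNA had a log2 fold change of 0.08 ± 0.17 in activated cells, and Ifitm1 RNA was not tested. Rsad2 RNA was at -1.24 ± 0.80 and did not pass (adjusted p = 0.368, edgeR quasi-likelihood test).

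In the promoter windows 22 sites were found at 21 genes, and the deposited FDR called none of them in either state. Of all sites it called 5.16% in activated and 0.0171% in naive cells. An edgeR test of the counts called 8 of the 22 higher and 1 lower in activated KO, against 35% of all sites (15% higher, 20% lower). Among the higher ones were Ifi203 at 0.99 ± 0.29, Tap1 at 0.21 ± 0.04 and Bst2 at 0.19 ± 0.04 on the log2 scale. At the Isg15 promoter, activated KO libraries held 32.5, 27.9 and 29.8 CPM and activated WT libraries 28.9, 25.4 and 22.6, which overlap. Naive libraries held 14.7, 14.8 and 15.3 in KO and 13.3, 13.3 and 11.2 in WT. The Ifitm3 promoter site was low throughout, at 2.09 to 2.67 in activated KO and 2.72 to 2.87 in activated WT. The lower one, at Slfn1, held 22.9, 15.8 and 17.9 in activated KO and 34.6, 27.8 and 24.8 in activated WT, with no overlap (edgeR log2 fold change -0.65 ± 0.14, adjusted p = 0.00243; deposited FDR 0.693 in the authors' deposited table).

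Replicate 1 stood less apart in chromatin than in RNA. It was the highest library at 17 of 22 promoter sites in activated KO and 14 of 22 in activated WT, against 35.9% and 33.9% of all sites, with median ratios to replicates 2 and 3 of 1.09 and 1.06. Between the states, 83 of 209 sites gained and 90 lost signal on activation in KO, and 89 gained and 93 lost in WT, against 88.6% of all sites called in KO (49.7% higher, 38.9% lower) and 90% in WT (51.4% higher, 38.6% lower). This split rests on the scaling: with total counts in place of TMM it was 114 and 61 in KO and 119 and 66 in WT, with a median log2 fold change over all sites of 1.04 in KO and 1.09 in WT, against 0.44 and 0.54 with TMM.

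**Figure D5:**
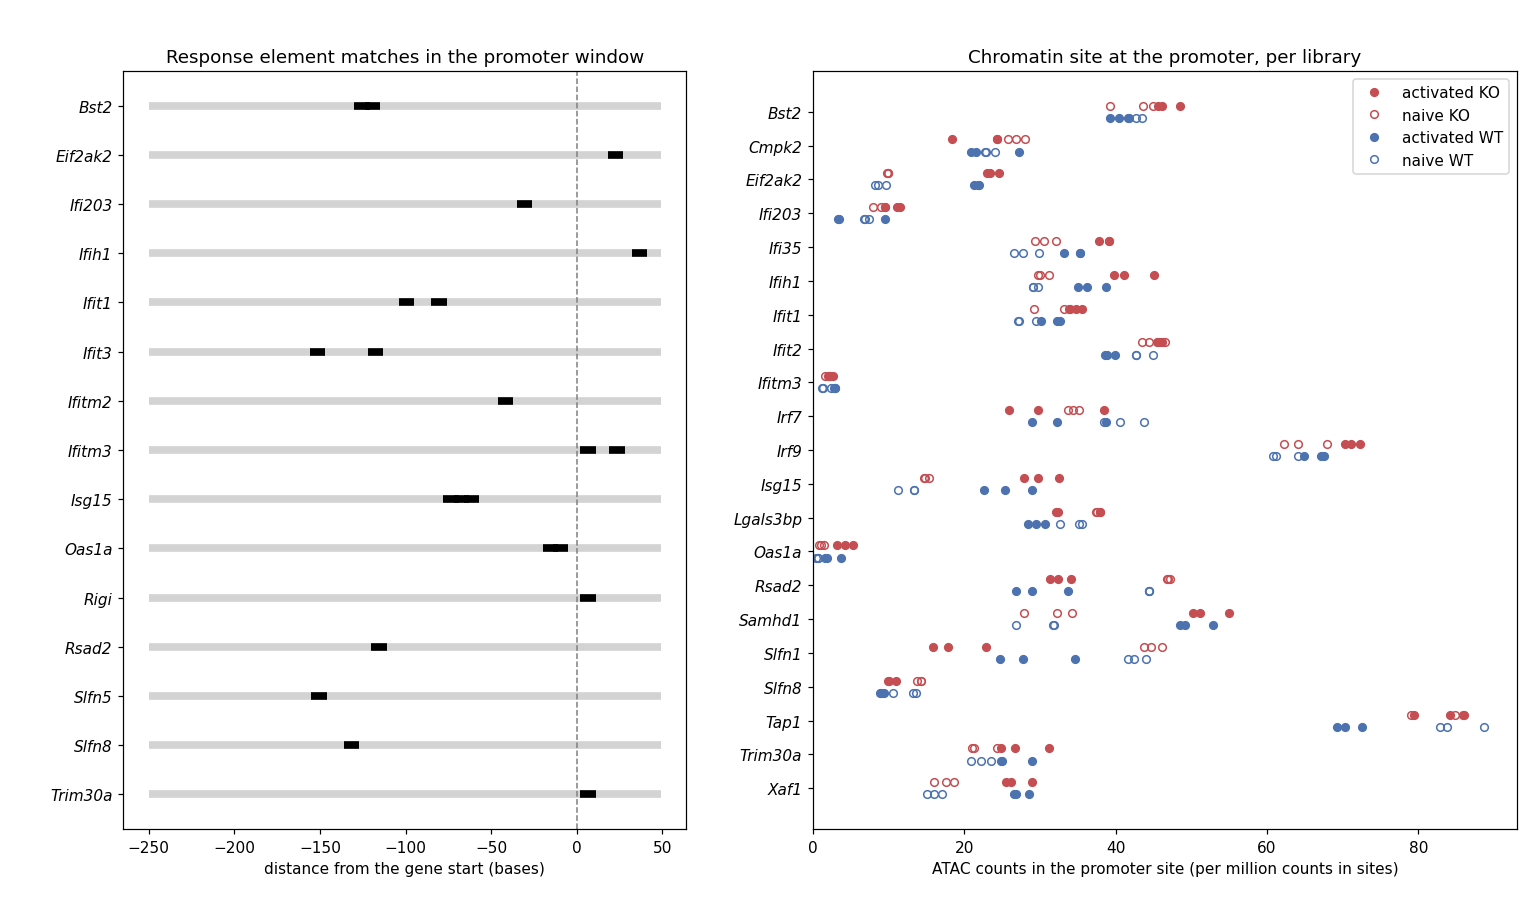
Left, matches of the interferon-stimulated response element (black) in the 300-base promoter window (grey) of the 15 genes that hold one. Distances are in bases from the start site of the window. Right, ATAC level in CPM of counts in sites at the promoter site of 21 genes (for Trim30a the nearer of 2) in activated (filled) and naive (open) KO and WT libraries; at Slfn1 the activated KO libraries, at 15.8 to 22.9, lie below the activated WT libraries, at 24.8 to 34.6.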

How the data were processed

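For RNA the authors deposited unscaled counts per gene in a table of naive and activated libraries and another of forskolin libraries. For ATAC the authors deposited counts per site with group means, a log2 fold (WT minus KO, not scaled to depth, turned here to KO minus WT), a p-value and an FDR for each site. The build is mm10, per the submitters' processing notes; the aligner, counter, strand setting and peak caller are not given in the sources used here. Features with no symbol (1314 of 27179 in the table of naive and activated cells) were dropped, and took 0.128% to 0.159% of each of its 12 libraries; the forskolin table had none.

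RNA and ATAC counts were tested with edgeR 4.0.16 in R 4.3.3 (filterByExpr, TMM, quasi-likelihood test, Benjamini-Hochberg at 0.05 over all genes or sites), with naive and activated libraries in 1 fit of 12 and the forskolin libraries in a fit of 6. The code was tested on simulated data. Main ATAC calls between genotypes are the deposited FDR. A count of 0 in an RNA library is below 3 counts, or 0.251 to 0.391 CPM; floors and intervals cover counting error only. The deviations of same-numbered activated KO and WT libraries from their group means correlated at 0.557, 0.280 and 0.236, all above 0.1, so the numbers were taken to pair them; numbers 2 and 3 are weakly told apart, as KO 2 with WT 3 gave 0.254 and KO 3 with WT 2 gave 0.194. In naive cells the values were 0.409, 0.00363 and 0.0402 and with forskolin 0.161, 0.0776 and 0.217, and the numbers were not taken to pair these. Within KO, activated and naive libraries correlated at 0.360, 0.180 and 0.126, and within WT at 0.267, 0.129 and 0.0967.

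The genes, lists and tests were chosen with earlier results of these data known. Values per library are given for genes past a KO against WT test (up to 6 a direction), the 4 largest changes a direction on activation in WT, Isg15, Irf7, Irf9, Ifit1, Mx1, Rsad2 and the upstream genes Stat2, Ifnar1, Ifnar2 and Irf1, with another upstream gene not reported here; other genes given by name (such as Gbp2, Ifng, Ifngr1, Socs3, Ifi44, Ube2l6 and Zbp1) and the Isg15, Ifitm3 and Slfn1 promoter sites were chosen after their values were seen. Gene spans and promoter sequences come from RefSeq on GRCm38.p6. Spans of Parp9 and Dtx3l overlap, and reads of close relatives (Ifit, Ifitm, Slfn, Oas genes) may be split uncertainly. Alternatives were RLE and upper-quartile scaling, no filter, DESeq2 1.42.0, a threshold of 0.01, a replicate block, each library left out in turn, sites within 2 kb and total counts.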

Additional observations from a re-analysis of the deposited data

Results flagged for a closer look

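Zbp1, which encodes a sensor of Z-form nucleic acid, went opposite ways in 2 states. With forskolin it stood at 40.5, 41.3 and 42.6 CPM in KO and at 33.3, 35.8 and 36.3 CPM in WT, every KO library above every WT library. In naive cells it stood at 108, 103 and 107 CPM in KO and at 114, 115 and 111 CPM in WT, every KO library below. The log2 fold changes differ by 0.334, and this difference was not tested. The naive difference did not pass the test (log2 fold change -0.12 ± 0.26, adjusted p = 1, edgeR quasi-likelihood test). That SE is not the naive spread alone, as activated libraries share the fit. In them Zbp1 ranged from 88.8 to 127 CPM in KO and from 112 to 241 CPM in WT.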

How the results depend on the processing

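Counts of genes past the test between activated KO and WT cells were the least stable. From 2 with all libraries (14.9% of all genes called) they went to 5 with a replicate block (17.3%). They went to 20 with a replicate block in the 6 activated libraries alone (34.1%) and 10 without both replicate 1 activated libraries (8.99%). With each library left out in turn they ranged from 2 to 6. They were 4 without WT replicate 1, 6 without WT replicate 3 and 4 without KO replicate 1. Over all genes these gave 520 higher and 873 lower, 487 and 857, and 497 and 844, against 706 and 1083 with all libraries. Adjusted p ranged over these alternatives from 9.11e-05 to 0.0688 for Ly6e and from 2.16e-09 to 0.0478 for Ifitm3. The interaction went from 0 (3.7% of all genes called) to 3 without both replicate 1 libraries (2.89%). Naive cells stayed at 0 under every alternative run, where the main fit called 0.242% of all genes. All of these fits held activated libraries, so they cannot show whether the count would stay at 0 with the naive libraries alone. With forskolin the count ranged from 16 (DESeq2, and a threshold of 0.01) to 22 (replicate block, and upper-quartile scaling). It ranged from 17 to 21 with a library left out. Over all genes the forskolin calls were 2294 higher and 2190 lower in the main fit. They were 1820 and 1598 with DESeq2, and 2467 and 2327 with a replicate block. On activation the count ranged over all alternatives from 21 to 33 in KO and from 21 to 31 in WT. In the main fit 82.1% of all genes were called in KO and 82.6% in WT. The replicate block within genotype gave 23 in KO and 25 in WT. Of the genes with values per library, Lgals3bp and Usp18 on activation, Rigi with forskolin and Ly6e in activated cells lost their call under some alternative. At 0.01 the list also lost Eif2ak2, Oas1a and Zbp1 with forskolin, Ifi35 and Slfn2 on activation in KO, and Dhx58, Ifi35, Ifit2, Oasl2 and Xaf1 on activation in WT.

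Over all genes, activated KO against WT gave 706 higher and 1083 lower, and 987 and 843 with upper-quartile scaling, with 1 and 1 genes of the list under both. ATAC sites in activated cells went from 8 (5.16% of all sites called) to 4 at an FDR of 0.01 and to 4 within 2 kb. They went to 72 with edgeR (35%), 86 with a replicate block and 49 to 86 with a library left out under edgeR. In naive cells edgeR gave 7 (1.89%), with a replicate block 32, and 1 to 7 with a library left out. Shares of all sites are not given here for the other ATAC settings. On activation, sites within 2 kb gave 110 in KO and 116 in WT, as fewer sites are tested. Causes were otherwise not tested. Depth limits the low genes: Ifitm1 was too low to test.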
